A study of Mus musculus with 57 samples.

Results

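The 9 genes described here encode 8 G protein-coupled receptors that raise or lower cyclic AMP in fat cells, Adrb1, Adrb3, Adra2a, Hcar1, Hcar2, Adora1, Ffar4 and Ptger3, and the cyclic AMP phosphodiesterase Pde3b. They were taken by gene symbol from the count tables, and all 9 of 9 were among the 52853 genes in the tables. Hcar1 was chosen by its measured fall in mutant brown fat, so its values in brown adipose tissue (BAT) are given as a description, without a test, and counts that involve BAT are over the other 8 genes. RNA sequencing (RNAseq) of poly(A) RNA was performed on adipose tissue of male C57BL/6J mice that were wild-type (WT) or homozygous for Mfn2 R707W knock-in (KI), a change in mitofusin 2, which joins the outer membranes of mitochondria. The mutation was carried by the endogenous gene in every tissue, came from 1 founder edited with CRISPR-Cas9 and was accompanied by a silent restriction site, and KI and WT littermates shared cages. Inguinal white adipose tissue (WAT) came from mice on chow (7 WT, 6 KI) or on a high-fat diet (HFD) with 45% of calories from fat (8 WT, 8 KI), and BAT from mice on HFD (6 WT, 6 KI). Diets were given for 6 months from 5 weeks of age. The mice were killed after a fast.

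Fat cells release fatty acids by lipolysis when noradrenaline acts on beta-adrenergic receptors, which couple to the stimulatory G protein, raise cyclic AMP and activate protein kinase A. The alpha2A-adrenergic receptor Adra2a, the lactate receptor Hcar1, the 3-hydroxybutyrate and niacin receptor Hcar2, the adenosine receptor Adora1 and the prostaglandin E2 receptor Ptger3 couple to the inhibitory G protein and restrain lipolysis. Ffar4 binds long-chain fatty acids, and Pde3b, which insulin activates, degrades cyclic AMP.

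The libraries held 8042591 to 11720458 counts per mouse in BAT and in inguinal WAT on chow, and 17572752 to 25680411 in inguinal WAT on HFD, where each mouse had 2 technical replicates and 1 column. Brown adipocyte markers (6 genes, Ucp1 among them) summed to 11962 to 21809 CPM (counts scaled by library size) in BAT and to 860.6 CPM or less in inguinal WAT. Adipocyte markers (7 genes) summed to at least 18109 CPM in every mouse. RNA of other tissues was above set limits in 12 of the 41 mice, with summed skeletal muscle markers above 1000 CPM, lymphocyte markers above 30 CPM or epithelial markers above 100 CPM. Mice below these limits also held some, such as 616.4 CPM of muscle markers in KI mouse 6 of BAT, which was kept. The highest value was 46678 CPM of muscle markers in KI mouse 4 on chow. Each comparison was therefore also run without these 12 mice, an alternative chosen after the values were seen, which left 4 WT and 6 KI mice in BAT, 5 WT and 3 KI on chow and 6 WT and 5 KI on HFD. In bulk tissue, fewer cells of a type and less RNA per cell cannot be told apart.

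Hcar1 and Hcar2 are single-exon neighbours on the minus strand of chromosome 5 (GRCm38, GENCODE vM21, chr5:123876736-123880020 and chr5:123863570-123865499), with 11236 bases between them. Their transcripts share no run longer than 18 bases. Ffar4 (chr19:38097071-38114263, plus strand, 3 exons) ends 2365 bases from Rbp4, which lies on the opposite strand and ends towards it. Adora1 (chr1:134199223-134235431, minus strand) shares 1162 exonic bases with Mybph on the plus strand, 20.1% of the exonic bases of Adora1 and 49.9% of those of Mybph in this annotation. Adrb3 (chr8:27225776-27250616, minus strand) shares 839 exonic bases, 24.9% of its own, with the antisense RNA Gm45470. Whether the counting used strand is not given in the sources used here, and without strand the reads of such pairs cannot be told apart. Adrb1 (chr19:56722199-56733113, plus), Adra2a (chr19:54044151-54048982, plus), Ptger3 (chr3:157566892-157645888, plus) and Pde3b (chr7:114415281-114539251, plus) overlap no other gene. All 9 are protein-coding.

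RefSeq promoters (GRCm38.p6, 250 bases before to 50 after the start site) were given for 6 of the 9 genes, Adrb1, Adra2a, Hcar1, Adora1, Ffar4 and Ptger3. The promoters of Hcar1 (chr5:123879954-123880253, minus strand) and Ffar4 (chr19:38096829-38097128, plus strand), the 2 of these genes with the largest differences between genotypes, are shown 5′ to 3′, and none of the motifs searched is in either, so that no base is in capitals.
Hcar1: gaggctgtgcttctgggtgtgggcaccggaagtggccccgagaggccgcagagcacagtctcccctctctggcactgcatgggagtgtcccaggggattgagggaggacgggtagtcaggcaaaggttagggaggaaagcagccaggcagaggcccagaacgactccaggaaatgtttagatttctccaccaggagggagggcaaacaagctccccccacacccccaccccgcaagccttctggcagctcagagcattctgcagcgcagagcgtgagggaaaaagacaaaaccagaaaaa
Ffar4: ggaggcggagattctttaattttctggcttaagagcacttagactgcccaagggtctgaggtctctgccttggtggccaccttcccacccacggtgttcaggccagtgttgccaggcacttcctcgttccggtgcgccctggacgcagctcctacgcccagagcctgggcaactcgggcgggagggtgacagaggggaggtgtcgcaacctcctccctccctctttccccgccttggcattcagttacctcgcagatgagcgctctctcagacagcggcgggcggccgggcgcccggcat
The motifs, searched on both strands, were the cyclic AMP response element (TGACGTCA), its core (TGACG, which lies within it), the stress element that C/EBP and ATF proteins bind (TGATGNAA), the PPAR element, the E box (CACGTG) and the hypoxia core (ACGTG, which lies within the E box). The core of the cyclic AMP element occurred in the promoters of Adrb1 and Adra2a and in 20.8% of all 32851 promoters. The hypoxia core occurred in those of Adra2a and Ptger3, in 1 of the 2 of Adora1 and in 19.6% of all, and the E box in that of Adra2a and in 7.15% of all. The whole cyclic AMP element, in 1.79% of all promoters, the stress element, in 3.97%, and the PPAR element, in 0.0396%, were in none of the 6 genes. No match says only that these letters are not in this window.

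In inguinal WAT on HFD, 3 of the 9 genes were called at an adjusted p below 0.01 (edgeR's quasi-likelihood test), and all 3, Hcar1, Hcar2 and Adora1, were lower in KI mice. Of all 16471 genes tested there 11.5% were called, 5.24% lower and 6.21% higher in KI mice. On chow 1 of 9, Hcar1, was called, again lower in KI mice, against 3.23% of 14629 genes, 1.27% lower and 1.96% higher. In BAT 1 of the 8 genes other than Hcar1 was called, Ffar4, lower in KI mice, against 1.83% of 13267 genes, 0.475% lower and 1.36% higher. The low-count filter passed 6 of these 8 in BAT and left out Adra2a and Hcar2, while all 9 passed it in inguinal WAT. No gene of the 9 was called higher in KI mice in any tissue or diet. The ranges of KI and WT mice did not overlap for 2 of 9 genes in inguinal WAT on HFD (Hcar1, Hcar2; 4.53% of all genes tested), 1 of 9 on chow (Hcar1; 4.22%) and 1 of 8 in BAT (Ffar4; 3.69%). Over the 9 genes the log2 fold change had a median of -0.085 on HFD and -0.13 on chow, against 0.0055 and -0.0085 over all genes tested.

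**Figure D1:**
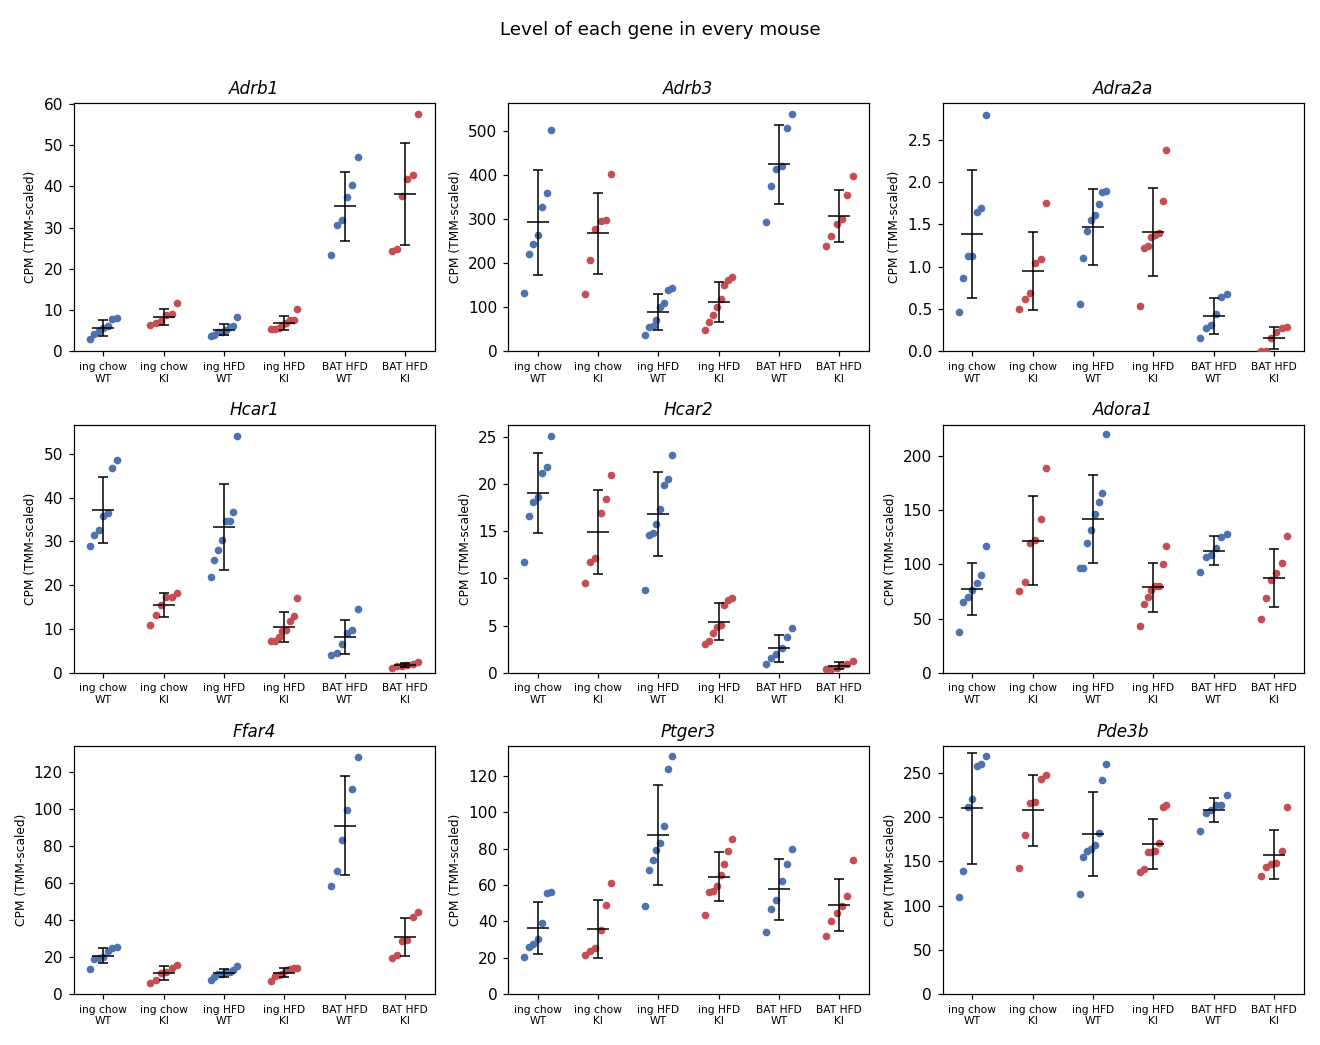
Level of each of the 9 genes in every mouse, in CPM on 1 scale for all 41 mice (vertical axes from 0), for WT (blue) and KI (red) mice of inguinal WAT (ing) on chow, inguinal WAT on HFD and BAT on HFD. Each point is a mouse and the bars are mean ± SD. Hcar1 of the KI mice lies below that of the WT mice in inguinal WAT on both diets, and also in BAT, where it was chosen by this fall. The lowest WT mouse for Ffar4 in BAT (58.2 CPM) lies above the highest KI mouse (44.3 CPM).

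Hcar1, through which lactate restrains lipolysis, was reduced in KI mice on both diets in inguinal WAT. On HFD it ranged from 21.8 to 54.1 CPM in WT mice, with a median of 32.5, and from 7.18 to 17.0 CPM in KI mice, with a median of 9.69. The ranges did not overlap, and all 8 KI mice lay below all 8 WT mice. Mean levels were 33.3 ± 9.81 CPM in WT and 10.5 ± 3.35 CPM in KI (SD, n = 8), a 3.18-fold difference, with a fitted log2 fold change of -1.66 (SE 0.20, edgeR adjusted p = 1.24e-05). On chow Hcar1 ranged from 28.9 to 48.7 CPM in WT mice, with a median of 35.9, and from 11 to 18.1 CPM in KI mice, with a median of 16.3. The 6 KI mice again all lay below the 7 WT mice, with a log2 fold change of -1.28 (SE 0.15, edgeR adjusted p = 0.00015). The difference between the HFD and the chow effect was -0.36 (SE 0.27) on the log2 scale and was not called (edgeR adjusted p = 0.54).

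In BAT the values that led to the choice of Hcar1 were 4.08 to 14.6 CPM in WT mice, with a median of 7.85, and 1.07 to 2.51 CPM in KI mice, with a median of 1.62. The means were 8.10 ± 3.92 CPM and 1.69 ± 0.50 CPM (SD, n = 6 each), and the fitted log2 fold change was -2.26. WT BAT held 4.11-fold less Hcar1 than WT inguinal WAT on HFD, and KI BAT 6.18-fold less than KI inguinal WAT. Across the 6 groups Hcar1 ranked from WT inguinal WAT on chow, WT on HFD, KI on chow, KI on HFD and WT BAT to KI BAT, with a 22-fold span of means. In this order the ranges of WT on HFD and KI on chow, and those of WT and KI BAT, did not overlap, and all other neighbours overlapped.

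On HFD, 2 of 7 adipocyte markers, Adipoq (-0.85, SE 0.10) and Lep (-0.62, SE 0.15), were lower in KI inguinal WAT on the log2 scale and 1, Lipe, was higher. Of these 7 markers edgeR called 0 in either direction on chow and 0 in BAT. The paper, using DESeq2, reported lower Adipoq and Lep in KI mice in both. On chow the log2 fold change of Adipoq was -0.63 (edgeR adjusted p = 0.016) and Lep was at 1733 ± 731.2 CPM for WT and 614.7 ± 341.1 CPM for KI (SD, edgeR adjusted p = 0.023). In BAT Adipoq was at -0.67 on the log2 scale (edgeR adjusted p = 0.013). The 7 adipocyte markers summed to a median of 40751 CPM in WT and 37644 CPM in KI inguinal WAT on HFD, 44345 and 35540 CPM on chow, and 23321 and 20014 CPM in BAT. Per 10000 CPM of these markers, Hcar1 was 5.83 to 12 CPM in WT and 1.94 to 4.78 CPM in KI mice on HFD, and 6.44 to 11 and 2.80 to 5.38 CPM on chow, so that the genotypes did not overlap on this scale in inguinal WAT. In BAT, where Hcar1 was chosen by its fall, the values were 1.84 to 6.26 and 0.58 to 1.39 CPM. Brown adipocyte markers summed to 13.6 to 31.3 CPM in WT and 27.3 to 59.7 CPM in KI inguinal WAT on HFD, and to 36.5 to 118.0 and 151.0 to 860.6 CPM on chow. Of these brown markers Cidea and Cox8b were called higher in KI mice on both diets. In BAT, the adipocyte gene Lep (leptin) was at 105.5 ± 76.7 CPM in WT and 32.2 ± 13.2 CPM in KI samples, and Car3 at 2653 ± 623.4 and 602.4 ± 656.1 CPM (SD over 6 mice), neither of which passed the threshold (edgeR adjusted p = 0.10 and 0.036). Their part in the values of Hcar1 was not tested.

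Hcar2 is found on fat cells and also on macrophages and neutrophils. On HFD it ranged from 8.76 to 23.1 CPM in WT inguinal WAT, with a median of 16.6, and from 3.01 to 7.95 CPM in KI, with a median of 4.95. All 8 KI mice lay below all 8 WT mice. The means of 16.9 ± 4.43 and 5.43 ± 1.96 CPM (SD, n = 8 each) differed 3.10-fold, with a log2 fold change of -1.63 (SE 0.22, edgeR adjusted p = 3.98e-05). On chow the WT mice spanned 11.8 to 25.1 CPM, with a median of 18.6, and the KI mice 9.48 to 21.0 CPM, with a median of 14.5. These ranges overlapped, and the log2 fold change of -0.36 (SE 0.20) was not called (edgeR adjusted p = 0.28). The HFD effect minus the chow effect was -1.25 (SE 0.31) on the log2 scale, which had an edgeR adjusted p of 0.022 and so missed the threshold of 0.01, with 0.632% of all 17400 genes called. DESeq2 put this difference at an adjusted p of 0.0036, and without the 12 mice that held RNA of other tissues edgeR put it at 0.37.

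The macrophage markers summed to 315.1 to 578.3 CPM in WT and 242.2 to 650.3 CPM in KI inguinal WAT on HFD, and the neutrophil markers to 9.08 to 25.4 and 4.66 to 10.9 CPM. Of 7 macrophage markers Itgax alone was called on HFD and fell by 1.44 on the log2 scale (SE 0.28, edgeR adjusted p = 0.0018), and of 3 neutrophil markers tested S100a8 alone was called and fell by 1.91 (SE 0.30, edgeR adjusted p = 0.000145). Their part in the fall of Hcar2 was not tested.

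In BAT Hcar2 was scarce and did not pass the low-count filter. It spanned 0.93 to 4.76 CPM in WT mice, with a median of 2.28, and 0.34 to 1.28 CPM in KI mice, with a median of 0.65. The ranges overlapped, and the means of 2.60 ± 1.45 and 0.72 ± 0.37 CPM (SD, n = 6 each) differed 3.60-fold (2-sided exact permutation test over 924 divisions, p = 0.0065, smallest possible 0.0022). Without the 2 WT BAT samples with muscle RNA the exact p was 0.014, with 0.0048 as the smallest possible. With these low counts kept in the fit, the log2 fold change was -1.88 (SE 0.42, edgeR adjusted p = 0.0077). The level of Hcar2 was 6.49-fold lower in BAT than in inguinal WAT of WT mice on HFD and 7.54-fold lower in KI mice.

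**Figure D2:**
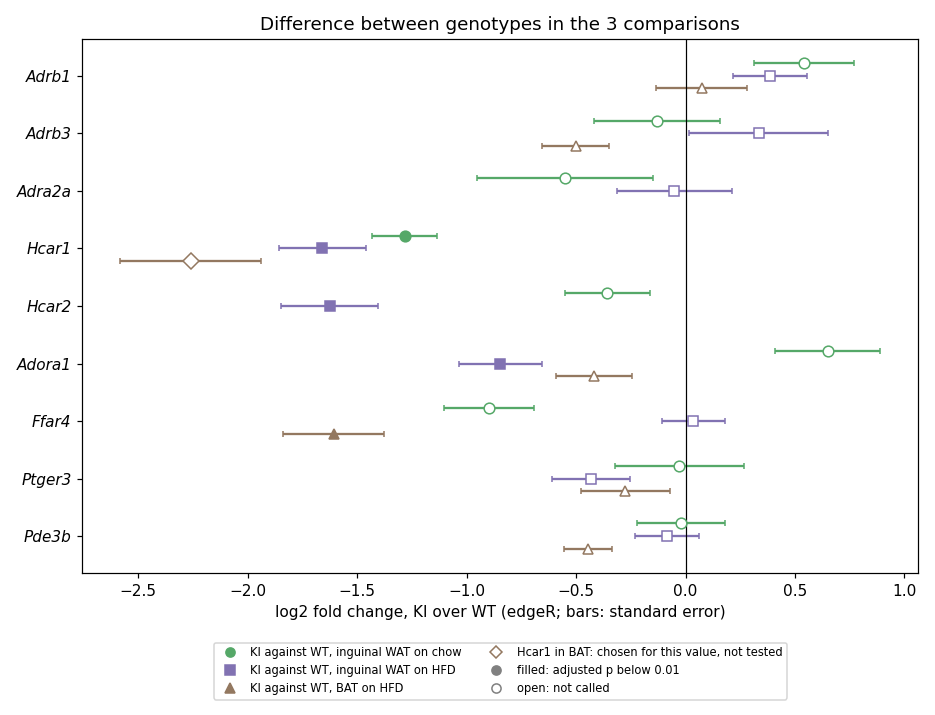
Fitted log2 fold change of KI over WT (horizontal axis, bars SE) of each gene in inguinal WAT on chow (green circles), inguinal WAT on HFD (purple squares) and BAT on HFD (brown triangles), filled where the edgeR adjusted p is below 0.01. The open diamond is Hcar1 in BAT, which was chosen for this value and not tested, and Adra2a and Hcar2 are missing for BAT because they did not pass the low-count filter. Hcar1 lies at -1.28 or lower in all 3, Adora1 is at -0.85 on HFD and 0.65 on chow, and Ffar4 is near 0 on HFD in inguinal WAT and at -1.61 in BAT.

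Adora1, the main adenosine receptor of fat cells, was lower in KI mice on HFD and not on chow. In inguinal WAT on HFD it ranged from 96.4 to 220.1 CPM in WT mice, with a median of 138.9, and from 43.3 to 116.7 CPM in KI mice, with a median of 78.2. The ranges overlapped, with 6 of 8 KI mice below every WT mouse. The log2 fold change was -0.85 (SE 0.19, edgeR adjusted p = 0.0041), and it was -0.71 with an adjusted p of 0.031 without the mice that held RNA of other tissues. On chow the WT mice ranged from 37.9 to 117.5 CPM, with a median of 76.6, and the KI mice from 75.1 to 188.8 CPM, with a median of 121.0. This difference of 0.65 (SE 0.24) on the log2 scale, with the KI mice above the WT mice on average, was not called (edgeR adjusted p = 0.11). The HFD effect minus the chow effect was -1.48 (SE 0.32), with an edgeR adjusted p of 0.012, just outside the threshold. It passed the threshold with DESeq2 (0.00037), with RLE size factors (0.0090) and in one fit of all 6 groups (0.0034), and was 0.068 without the mice with RNA of other tissues. In BAT the mean of Adora1 was 112.9 ± 13 CPM for WT and 87.2 ± 26.7 CPM for KI (SD, n = 6, edgeR adjusted p = 0.15).

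The values of Adora1 ran with those of Mybph, whose exons it overlaps and which is otherwise known as a gene of skeletal muscle. Over the 41 mice Pearson's r of their log2 CPM was 0.95, the highest of all 14775 genes compared with Adora1. For deviations from the group means r was 0.94. The ratio of Adora1 to Mybph CPM stayed between 1.84 and 3.24. In KI mouse 4 on chow, with 46678 CPM of muscle markers, Mybph was at 58.7 CPM and within the range of the other KI mice on chow, 35.2 to 88.1 CPM. The genotype differences of Mybph were near those of Adora1, -0.86 on HFD and 0.61 on chow. Adora1 had 5785 exonic bases in the tables, and how reads of the shared bases were counted is not given in the sources used here. The part of such reads in the differences was not tested.

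**Figure D3:**
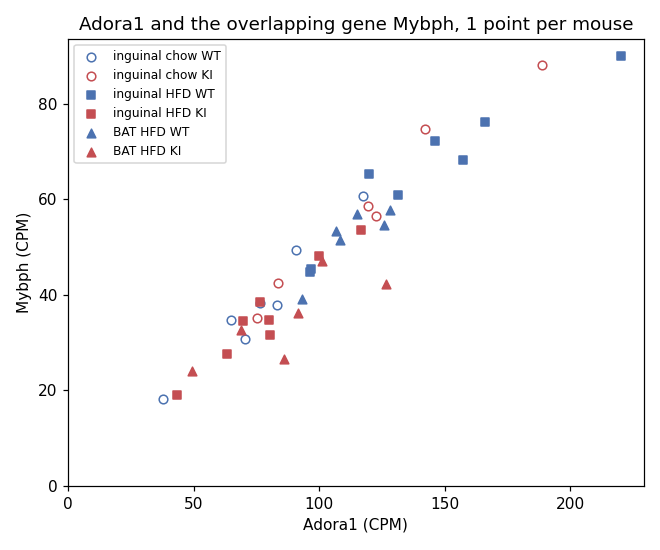
CPM of Adora1 (horizontal axis) against CPM of the overlapping gene Mybph (vertical axis), 1 point per mouse for 41 mice, with WT in blue, KI in red, open circles for inguinal WAT on chow, squares for inguinal WAT on HFD and triangles for BAT. The points lie close to 1 line through all 6 groups, and the ratio of Adora1 to Mybph runs from 1.84 to 3.24.

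Ptger3, the prostaglandin E2 receptor of fat cells, did not differ between genotypes past the threshold. On HFD in inguinal WAT it ranged from 48.7 to 131.1 CPM in WT and from 43.6 to 85.6 CPM in KI mice (log2 fold change -0.43, SE 0.18, edgeR adjusted p = 0.099). On chow the difference was -0.028 (SE 0.30) and in BAT -0.28 (SE 0.20). Adra2a, the inhibitory receptor of noradrenaline, was the scarcest of the 9 genes in every group, at 0.46 to 2.79 CPM in inguinal WAT. Its log2 differences between genotypes were -0.051 (SE 0.26) on HFD and -0.55 (SE 0.40) on chow, with edgeR adjusted p of 0.92 and 0.43. In BAT it was below the low-count filter, at 0.15 to 0.67 CPM in WT and 0 to 0.29 CPM in KI mice, with means of 0.42 ± 0.21 and 0.16 ± 0.13 CPM (SD, n = 6 each, 2-sided exact permutation test p = 0.032). This p was 0.12 by the same exact test without the WT BAT samples with muscle RNA.

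The 2 stimulatory receptors were not called between genotypes. Adrb3, the main beta-adrenergic receptor of mouse fat, spanned 36.8 to 144.3 CPM in WT and 47.8 to 169.6 CPM in KI inguinal WAT on HFD, and 131.8 to 502.6 and 130.4 to 402.7 CPM on chow. The log2 fold changes were 0.33 (SE 0.32) and -0.13 (SE 0.29), with edgeR adjusted p of 0.51 and 0.83. In BAT the level of Adrb3 was 424.8 ± 89.0 CPM for WT and 307.3 ± 59.0 CPM for KI (SD, n = 6), with a fitted log2 difference of -0.50 (SE 0.15) with an edgeR adjusted p of 0.053. The antisense RNA Gm45470 that shares its exons was at 14.2 ± 4.26 and 7.99 ± 2.28 CPM in the same samples, and over the 41 mice its log2 CPM had an r of 0.59 with Adrb3 and of 0.82 for deviations from the group means. Adrb1, the other beta-adrenergic receptor among the 9, was at 5.28 ± 1.43 CPM for WT and 6.86 ± 1.61 CPM for KI inguinal WAT on HFD (n = 8 each, edgeR adjusted p = 0.12), 5.69 ± 1.89 and 8.32 ± 1.98 CPM on chow (n = 7 and 6, edgeR adjusted p = 0.15), and 35.2 ± 8.30 and 38.1 ± 12.4 CPM in BAT (n = 6 each, edgeR adjusted p = 0.86).

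Ffar4, the receptor of long-chain fatty acids, was lower in KI than in WT BAT. It ranged from 58.2 to 127.9 CPM in WT mice, with a median of 91.2, and from 19.6 to 44.3 CPM in KI mice, with a median of 29.1. All 6 KI mice lay below all 6 WT mice. The means of 91.0 ± 26.7 and 30.8 ± 10.2 CPM (SD, n = 6 each) differed 2.95-fold, with a log2 fold change of -1.61 (SE 0.23, edgeR adjusted p = 0.0011). The log2 fold change was -1.54 (edgeR adjusted p = 0.0027) without the 2 WT samples above 1000 CPM of muscle markers. With mouse number as a block it was -1.61 and missed the threshold (edgeR adjusted p = 0.018). In inguinal WAT on HFD the means were 11.3 ± 2.24 CPM for WT and 11.5 ± 2.51 CPM for KI (SD, n = 8), a log2 difference of 0.035 (SE 0.14). The effect in BAT minus that in inguinal WAT was -1.61 (SE 0.27, edgeR adjusted p = 0.00038), and Ffar4 was the only one of the 6 genes that passed the filter in both tissues to be called for this difference, for which 2.82% of all 17214 genes were called.

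On chow, Ffar4 spanned 13.6 to 25.3 CPM in WT inguinal WAT, with a median of 20.01, and 6.22 to 15.8 CPM in KI, with a median of 11.9. The ranges overlapped, with 4 of 6 KI mice below every WT mouse. The log2 fold change of -0.90 (SE 0.21) missed the threshold with an edgeR adjusted p of 0.015, while DESeq2 put it at 0.00096 and one fit of all 6 groups at 0.0038. With mouse number as a block the edgeR adjusted p was 0.067. Without the mice with RNA of other tissues the log2 fold change was -0.63 with an adjusted p of 0.022. Ffar4 also passed in edgeR without WT mouse 4 (0.0083) or without KI mouse 5 (0.0081). The HFD effect minus the chow effect was 0.95 (SE 0.26, edgeR adjusted p = 0.041). Without the mice with RNA of other tissues it was 0.67 (edgeR adjusted p = 0.17). The neighbouring gene Rbp4, which encodes retinol-binding protein, was called lower in KI mice in all 3, with log2 fold changes of -2.89 in BAT, -0.91 in inguinal WAT on HFD and -2.36 on chow (SE 0.38, 0.18 and 0.21), and its r with Ffar4 over the 41 mice was -0.18.

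**Figure D4:**
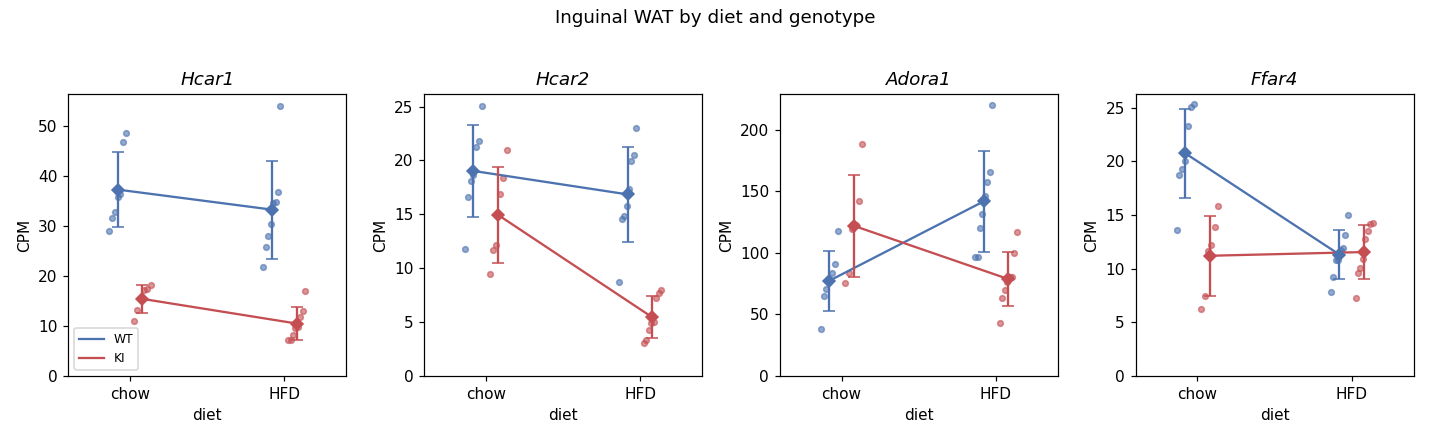
CPM of Hcar1, Hcar2, Adora1 and Ffar4 in inguinal WAT by diet, WT in blue and KI in red, with small points for mice, diamonds and bars for mean ± SD and lines between the means of the 2 diets. Hcar1 is lower in KI mice on both diets, Hcar2 falls from 14.9 to 5.43 CPM in KI mice, the lines of Adora1 cross, and Ffar4 falls from 20.8 to 11.3 CPM in WT mice while the means of KI mice are 11.2 and 11.5 CPM.

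Pde3b, through which insulin lowers cyclic AMP, was the most even of the 9 genes across groups, with a 1.33-fold span of group means. In inguinal WAT it ranged from 113.1 to 259.6 CPM in WT and 138.4 to 213.8 CPM in KI mice on HFD, and the log2 fold changes were -0.085 (SE 0.14) on HFD and -0.022 (SE 0.20) on chow. In BAT it spanned 184.2 to 225.6 CPM in WT mice, with a median of 210.9, and 133.4 to 211.2 CPM in KI mice, with a median of 148.1. Of the 6 KI mice 5 lay below every WT mouse. The log2 fold change was -0.45 (SE 0.11, edgeR adjusted p = 0.025). It was called by DESeq2 (adjusted p = 0.0068) and without KI mouse 5 (edgeR adjusted p = 0.0037). The edgeR adjusted p was 0.14 in one fit of all 6 groups and 0.099 without the 2 WT samples above 1000 CPM of muscle markers.

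Between diets, Adrb3 was lower and Ptger3 higher on HFD than on chow in inguinal WAT of both genotypes. In WT mice 4 of 9 genes were called against 28.2% of all genes tested, namely Adrb3 with a log2 fold change of -1.70 (SE 0.32, edgeR adjusted p = 9.75e-05), Ffar4 with -0.87 (SE 0.18), Adora1 with 0.88 (SE 0.23) and Ptger3 with 1.27 (SE 0.25). In KI mice 3 of 9 were called against 30.6%, Hcar2 with -1.43 (SE 0.22, edgeR adjusted p = 8.44e-06), Adrb3 with -1.23 (SE 0.32) and Ptger3 with 0.88 (SE 0.26). Without the mice with RNA of other tissues Hcar2 alone was called among these 3, with 3 KI mice left on chow. Chow and HFD samples came in separate tables with different depths, so diet and table cannot be told apart. None of the 9 genes passed the threshold for a difference of the genotype effect between diets in edgeR, and 3, Hcar2, Adora1 and Ffar4, had an unadjusted p below 0.05, as did 2927 of all 17400 genes. At an adjusted p below 0.05 the same 3 were called, of 500 genes in all, and DESeq2 called 2 at 0.01, of 408 in all.

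Between tissues on HFD, the stimulatory receptors and Ffar4 were higher in BAT. Of the 6 genes that passed the low-count filter in both tissues, other than Hcar1, 3 were called in WT mice and the same 3 in KI mice, against 55.9% and 59.1% of all genes tested, and the median log2 difference over all genes was -0.086 and -0.12. These 3 of 6 are thus no more than the share over all genes. Of all genes 4622 were called higher and 4997 lower in BAT of WT mice, and 4892 and 5276 in KI mice. Adrb1 was 6.66-fold higher in BAT of WT and 5.56-fold higher in BAT of KI mice, Adrb3 4.74-fold and 2.74-fold, and Ffar4 8.04-fold and 2.67-fold. Of these 3, the genotype effect differed between tissues past the threshold for Ffar4 only. Hcar2 and Adra2a entered the joint fit through inguinal WAT, where they were higher, so they are given by level only, with no more than 4 counts of Adra2a in any BAT library. Adora1, Ptger3 and Pde3b were not called, although Ptger3 in WT mice (log2 difference -0.60, edgeR adjusted p = 0.013) passed with DESeq2 (0.0049). Tissue and table cannot be told apart here either.

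Per kilobase of exon (FPKM), Adrb3 had the highest mean level of the 9 genes and Adra2a the lowest in all 6 groups. In WT inguinal WAT on HFD the order was Adrb3 (26.5 ± 12 FPKM), Adora1 (24.5 ± 7.05), Pde3b (19.8 ± 5.24), Ptger3 (15.4 ± 4.88), Hcar1 (10.1 ± 2.99), Hcar2 (8.73 ± 2.30), Ffar4 (8.07 ± 1.60), Adrb1 (1.56 ± 0.42) and Adra2a (0.30 ± 0.093; SD, n = 8). In KI mice of the same tissue and diet Hcar1 (3.19 ± 1.02 FPKM) and Hcar2 (2.81 ± 1.01 FPKM) lay below Ffar4 (8.24 ± 1.79 FPKM). In WT BAT Ffar4, at 64.9 ± 19.1 FPKM, ranked next after Adrb3 at 125.8 ± 26.4 FPKM, and in KI BAT it kept this rank at 22 ± 7.31 FPKM, near Pde3b at 17.3 ± 3.05 FPKM. Hcar1 was at 2.47 ± 1.19 FPKM in WT and 0.52 ± 0.15 FPKM in KI BAT.

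The rest of the pathway, 132 genes in 14 lists, is given by counts. On HFD in inguinal WAT 7 of 115 genes tested were higher and 14 lower, against 6.21% and 5.24% of all genes, with a median log2 fold change of 0.0068 against 0.0055. On chow 3 of 110 were higher and 5 lower, against 1.96% and 1.27%, with a median of 0.0079 against -0.0085. In BAT 2 of 107 were called, both lower, against 0.475% lower and 1.36% higher of all genes, with a median of -0.082 against -0.013.

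**Figure D5:**
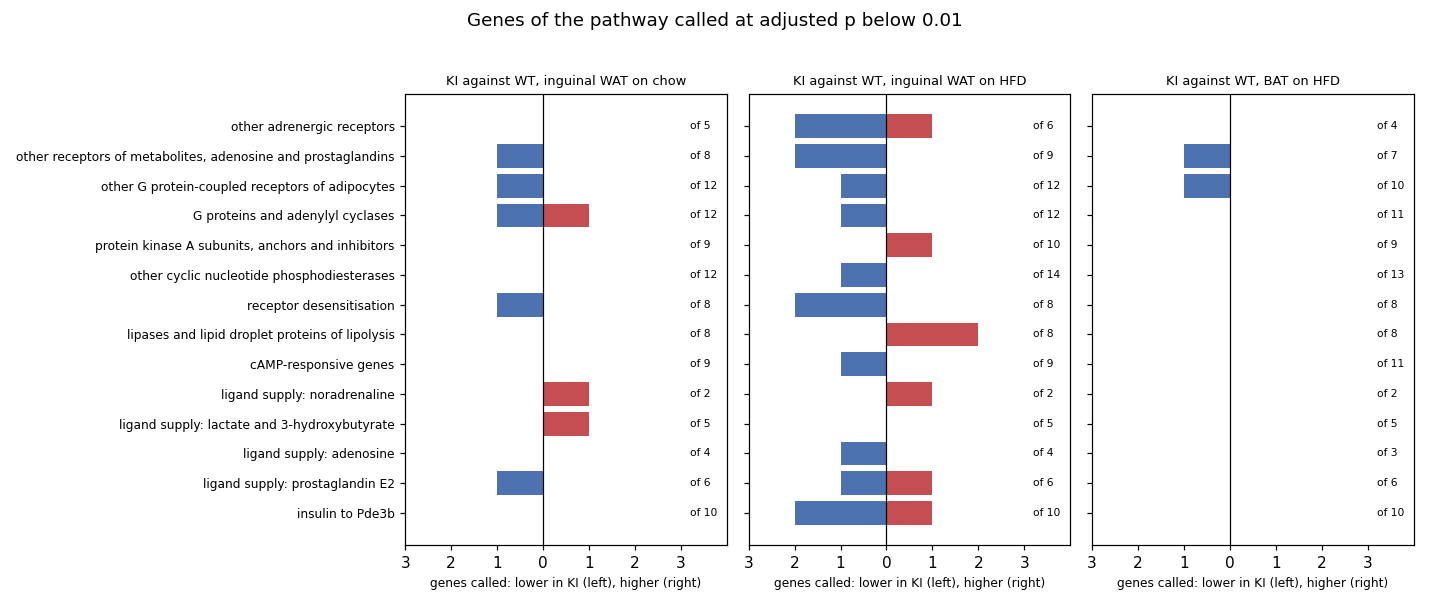
Number of genes of each of 14 pathway lists called at an adjusted p below 0.01, lower (blue, to the left) or higher (red, to the right) in KI mice, in inguinal WAT on chow, inguinal WAT on HFD and BAT, with the number tested at the right of each panel. No list has more than 2 genes called in 1 direction, and BAT has 2 called in all.

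Among the other adrenergic receptors, the alpha-adrenergic Adra1b (log2 fold change -1.04, SE 0.21) and Adra1a (-0.53, SE 0.098) were lower in KI mice on HFD. Of the other receptors of metabolites, adenosine and prostaglandins, the short-chain fatty acid receptor Ffar2 was lower on HFD (-0.74, SE 0.10) and on chow (-1.05, SE 0.21), the prostaglandin F receptor Ptgfr was lower on HFD (-1.45, SE 0.26), and the stimulatory adenosine receptor Adora2a was lower in BAT (-1.04, SE 0.16, edgeR adjusted p = 0.0014). The other receptors of fat cells gave 1 call each, the cannabinoid receptor Cnr1 on HFD (-1.30, SE 0.20), the lysophosphatidic acid receptor Lpar1 on chow (-0.81, SE 0.17) and the thyrotropin receptor Tshr in BAT (-1.63, SE 0.33, edgeR adjusted p = 0.0085), each lower in KI mice.

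Downstream of the receptors, the adenylyl cyclase Adcy5 was lower on HFD (-0.75, SE 0.10, edgeR adjusted p = 3.70e-05), and on chow the inhibitory G protein subunit Gnai1 was lower (-0.89, SE 0.13) and Adcy4 higher (0.36, SE 0.074). Of 10 genes for protein kinase A subunits, anchors and inhibitors the mitochondrial anchor Akap1 was higher on HFD (0.45, SE 0.098), and of 14 other phosphodiesterases Pde7a was lower on HFD (-1.01, SE 0.097, edgeR adjusted p = 6.64e-07). Among genes of receptor desensitisation, Rgs2 (-0.89, SE 0.20) and Grk5 (-0.35, SE 0.076) were lower on HFD and Arrb1, a beta-arrestin, was lower on chow (-0.55, SE 0.11). Of 8 lipases and lipid droplet proteins of lipolysis, Lipe (hormone-sensitive lipase, 0.54, SE 0.11) and Pnpla2 (adipose triglyceride lipase, 0.46, SE 0.11) were higher on HFD. The median over this list was 0.30 on HFD, 0.14 on chow and -0.00013 in BAT. Of 9 cyclic AMP-responsive genes on HFD only Crem was called, and it was lower (-0.32, SE 0.075). The median of the list was 0.43 on HFD, -0.13 on chow and 0.38 in BAT.

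For the ligands, Maoa, which breaks down noradrenaline, was higher on HFD (1.41, SE 0.19, edgeR adjusted p = 3.71e-05). Slc16a1, a lactate transporter, was higher on chow (0.98, SE 0.19). Entpd1, which degrades extracellular ATP towards adenosine, was lower on HFD (-0.30, SE 0.070). For prostaglandin E2, Ptgs1 was lower on HFD (-0.47, SE 0.12) and on chow (-0.54, SE 0.12), and Ptges3 was higher on HFD (0.29, SE 0.066). Between insulin and Pde3b, Akt2 was higher (0.40, SE 0.10) and Pik3cb (-0.74, SE 0.11) and Abhd15 (-0.41, SE 0.095) were lower on HFD.

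The genes whose log2 CPM over the 41 mice was most like that of Hcar1 were Hcar2 (r = 0.94), Retn (0.92), Adipoq (0.92), Gm454 (0.91) and B3galt2 (0.91), among 14775 genes with a mean of at least 1 CPM. For deviations from the group means r was 0.64, 0.44, 0.066, 0.35 and 0.32 in the same order, so that for Adipoq, which encodes adiponectin, the likeness lay between groups. Ndufs1, of the respiratory chain, was among the genes most like Adrb1 (0.95). Those most like Adrb3 were Thrsp and Gfra4 (0.89 each), like Adra2a Trim5 and Exoc1 (0.85 each), like Hcar2 Hcar1 and Slc25a10 (both 0.94), like Ffar4 Slc7a6 (0.90) and Gcdh (0.89), like Ptger3 Ttc7b (0.82) and Fbxl7 (0.79), and like Pde3b Negr1 (0.77) and B430010I23Rik (0.74). For Adora1, Ltbp3 came next after Mybph, with 0.68. The 41 mice share tissue and diet in 6 groups, and these values are descriptions.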

How the data were processed

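Per the labels and methods, cutadapt, STAR (GRCm38), samtools and featureCounts turned the reads into the raw counts per gene that the authors deposited in 3 tables. Tool versions, the annotation release and the strand setting are not given in the sources used here. The tables give 54838 entries, of which 1884 without length or count were left out. The 200 entries that share 99 symbols were reduced to the first of each, which left 52853 genes. No 2 of the 41 columns were identical.

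Each comparison was fitted over all genes with edgeR 4.0.16 (R 4.3.3; TMM, filterByExpr, robust quasi-likelihood test, group as the only term) and called at a Benjamini-Hochberg adjusted p below 0.01. Inguinal WAT on both diets, and both tissues on HFD, were each fitted together for diet, tissue and interaction terms. No source says if both tissues were taken from the same animals, and they were treated as independent. The SE was derived from the fold change and its F statistic. Levels are CPM on 1 TMM scale over all mice. FPKM is CPM over the exonic length that the tables give. Likeness used log2(CPM + 0.5). Genes below the filter were compared with 2-sided exact permutation tests of mean CPM. The alternatives tried comprised DESeq2 1.42.0, scaling by RLE, omitting the filter, at least 10 counts in every mouse, a replicate block, one fit of all 6 groups, an adjusted p below 0.05, each mouse left out, and, added later, leaving out mice with RNA of other tissues. The code was tested on simulated data.

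The 9 genes and the pathway and marker lists were chosen with earlier results of these data known. All 9 genes are named in each comparison. From each pathway list the called genes with the largest rise or fall between genotypes are named, up to 2 each way, and a few genes that the rules would name are not reported here. Pla2g16, 1 of the 132 pathway genes, is listed without a count. Each count column is 1 mouse, and the p-values measure the spread between mice of 1 founder line.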

Additional observations from a re-analysis of the deposited data

Results flagged for a closer look

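The effect of the KI genotype on Ffar4 differed between BAT and inguinal WAT on HFD (interaction on the log2 scale -1.61, SE 0.27, edgeR adjusted p = 0.00038). In BAT every KI mouse lay below every WT mouse, and in inguinal WAT the ranges of the genotypes overlapped. Of the 54 combinations of gene and group, 0 held a mouse set apart from the others of its group by Dixon's gap test, for which chance gives about 1 in 20.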

How the results depend on the processing

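Counts are of the 9 genes, or the 8 other than Hcar1 where BAT enters. For KI against WT in inguinal WAT on HFD the 3 calls stayed within 1.5-fold under every alternative run, although Adora1 was lost without a low-count filter and without mice holding RNA of other tissues. On chow the 1 call became 2 with DESeq2, in one fit of all 6 groups and at an adjusted p below 0.05, and ranged from 1 to 2 with each mouse left out (2 without WT mouse 4 or KI mouse 5, with Ffar4 added). In BAT the 1 call became 3 with DESeq2 (Ffar4, Hcar2 and Pde3b). It became 2 at an adjusted p below 0.05 (with Pde3b added) and with no low-count filter (with Hcar2 added). One fit of all 6 groups also gave 2, with Hcar2 added. Hcar2 entered that fit through inguinal WAT, where it was higher, so its call there is not a test. With each mouse left out the calls in BAT ranged from 1 to 2 (2 without KI mouse 5, with Pde3b added). The mouse numbers were not taken as pairs. KI and WT mice of the same number had correlations of their deviations from -0.28 to 0.73 on HFD, -0.26 to 0.22 on chow and -0.17 to 0.41 in BAT. The 0.73 was of mouse 2, with 541.6 CPM of lymphocyte markers in KI and 385.4 CPM in WT. These correlations cannot show whether mice of the same number shared a litter or cage. With the replicate block the count in BAT was 0, with Ffar4 at -1.61 (adjusted p = 0.018), and Pde3b on chow turned to 0.077. The block also took Ptger3 out of the calls for diet in KI mice (adjusted p = 0.022). The KI effect on HFD minus that on chow, with 0 calls in edgeR, gave 2 with DESeq2, 1 with RLE size factors, 1 in one fit of all 6 groups and 3 at an adjusted p below 0.05. HFD against chow in KI mice went from 3 to 5 at an adjusted p below 0.05 and to 1 without mice holding RNA of other tissues. Without these mice the exact test of genes below the filter in BAT gave 0 instead of 1 gene below 0.01.

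The signs that turned were all of values that were not called. Without mice holding RNA of other tissues they were Adra2a on HFD (0.012), Pde3b on chow (0.032), Ffar4 between diets in KI mice (-0.18) and Ptger3 between tissues (interaction -0.088). With each mouse left out, values crossed 0 for Adra2a on HFD (-0.21 to 0.074), Ffar4 on HFD (-0.028 to 0.11), Adrb3 on chow (-0.29 to 0.053), Ptger3 on chow (-0.23 to 0.11), Pde3b on chow (-0.12 to 0.071) and Adrb1 in BAT (-0.090 to 0.19). The cause of these changes was not tested. The filter of at least 10 counts in every mouse gave no value for genes with fewer counts, such as Adra2a on chow. Depth limits Adra2a in BAT, at 0 to 0.67 CPM.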
